A study of Mus musculus with 3 samples.

Results

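Interferon-stimulated genes were followed through sorted mouse natural killer (NK) cells as a list of 49 genes out of the 25906 genes counted in the files. It holds 42 genes best known as targets of type I interferon, and 7 genes (Gbp2, Gbp3, Gbp7, Irgm1, Igtp, Cxcl9 and Cxcl10) that interferon gamma also induces strongly and that were set against them. All 49 symbols were found, each on 1 row.

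The cells were NK1.1+NKp46+ cells of wild-type female mice 9 weeks old, taken from lung and blood. There were 3 droplet libraries, 1 from naive mice and 1 each from mice killed 6 h and 14 days after PyMT mammary tumor cells were injected into a vein, a model in which tumor cells seed the lung. In each library lung and blood cells were mixed and marked by hashtag antibodies, B0304 read as lung and B0306 as blood because the methods name tissues and tags in that order. Barcodes with 800 to 5000 genes, at most 6% mitochondrial counts and at least 90% of tag counts from 1 tag gave 3676 cells from naive lung, 4367 from naive blood, 4680 from lung at 6 h, 2746 from blood at 6 h, 3575 from lung at 14 days and 2069 from blood at 14 days. With 1 library per time point, the time after injection, the library and the pool of mice cannot be told apart, so no difference over time has a replicate check and no test was made. Levels are the summed UMI count of a group per 1000000 UMIs (CPM), and every interval is a 95% interval of counting error only.

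Type I interferons (interferon alpha and beta) bind the receptor IFNAR1/IFNAR2 on almost all cells, and signal through the kinases JAK1 and TYK2 to a complex that holds STAT2 and IRF9 and binds the interferon-stimulated response element in target promoters. Interferon gamma, which NK cells make themselves, signals through IFNGR1/IFNGR2 to factors that bind the gamma-activated sequence, and many genes answer both kinds of interferon. In NK cells type I interferon is known for priming cytotoxicity.

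The promoters of these genes held the first of these motifs more often than promoters at large. RefSeq windows of 300 bases (GRCm38.p6, 250 bases before to 50 after the start of a gene) were at hand for 40 of the 49 members. Usp18, Mx1, Oas2, Dhx58, Zbp1, Rtp4, Parp9, Parp14 and Ifi27l2a had none. The core of the response element, searched as TTTCNNTTTC on both strands with overlaps allowed, stood in 22 of the 40 (55.0%), in 3.44% of all 32851 windows and in 4.03% of the 7269 expressed genes with a window. It was in 16 of 33 type I members and in 6 of the 7 others (all but Cxcl9). The core of the gamma-activated sequence, TTCNNNGAA, was in 9 of the 40 (22.5%), against 8.30% of all windows. Counted by gene, it was in 9.55% of all 27025 genes with a window and in 8.54% of the 7269 expressed ones. A match describes letters and does not show binding. The 90 bases around the core are shown for Isg15, for 3 members with among the widest differences below (Ifit1, Ifit3 and Rsad2), and for Cxcl10, Gbp2 and Irgm1 of the other group, with each match in capitals, 5′ to 3′ on the strand of the gene.
Isg15: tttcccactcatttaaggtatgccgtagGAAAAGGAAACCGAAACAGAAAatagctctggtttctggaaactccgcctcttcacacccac
Ifit1: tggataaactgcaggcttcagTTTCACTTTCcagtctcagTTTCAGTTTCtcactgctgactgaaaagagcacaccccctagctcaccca
Ifit3: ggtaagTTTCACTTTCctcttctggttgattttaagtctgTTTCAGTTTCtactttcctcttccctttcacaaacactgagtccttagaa
Rsad2: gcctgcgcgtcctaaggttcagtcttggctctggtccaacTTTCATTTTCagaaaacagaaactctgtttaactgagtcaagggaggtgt
Cxcl10: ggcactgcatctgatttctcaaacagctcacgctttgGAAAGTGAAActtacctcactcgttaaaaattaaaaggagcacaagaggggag
Gbp2: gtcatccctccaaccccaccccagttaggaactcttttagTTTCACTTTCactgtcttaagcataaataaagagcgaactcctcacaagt
Irgm1: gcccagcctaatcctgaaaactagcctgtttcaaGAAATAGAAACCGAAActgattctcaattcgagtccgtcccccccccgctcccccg
In turn these lie at chr4:156200835-156200924 (minus strand), chr19:34640764-34640853 (plus), chr19:34583367-34583456 (plus), chr12:26456523-26456612 (minus), chr5:92349050-92349139 (minus), chr3:142620564-142620653 (plus) and chr11:48871395-48871484 (minus). The match nearest to the start began 66 bases before it in Isg15, 85 in Ifit1, 122 in Ifit3, 120 in Rsad2, 213 in Cxcl10, 59 in Gbp2 and 24 in Irgm1. Isg15 held 3 overlapping cores in its window, and Ifit1, Ifit3 and Irgm1 held 2 each. The core was in 9 of the 17 type I members with a window that were higher in lung at 14 days and in 7 of the 16 others.

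The cells carried the markers of NK cells. All 8 NK markers were detected in each group, with a summed level of 16263 CPM in 14-day lung and 19864 to 23747 CPM in the other groups. Markers of type 1 innate lymphoid cells (ILC1) summed to 70.3 CPM in 14-day lung, 70.2 in 14-day blood and 25.9 to 37.1 elsewhere. Myeloid markers summed to 5.30 to 95.1 CPM, most in 14-day blood, and T cell markers to 21.0 to 40.7 CPM, most in 14-day lung. Neutrophil markers summed to 11.2 CPM in naive lung, 25.4 in naive blood and 0.0278 to 2.08 elsewhere. Plasmacytoid dendritic cell markers summed to 15.4 CPM in 14-day lung and to at most 2.66 CPM elsewhere, but 14.5 of the 15.4 CPM were Pacsin1, while Siglech had 1 UMI. Haemoglobin genes summed to 68.2 CPM there and to at most 0.272 CPM elsewhere, and endothelial markers to 3.58 CPM there and to at most 0.0590 elsewhere. Cells with a haemoglobin UMI made up 0.0839% of 14-day lung. Markers of another type were counted as the myeloid, neutrophil, B cell, endothelial, epithelial, platelet and plasmacytoid dendritic ones, Pacsin1 included. T cell, ILC1 and haemoglobin genes were not counted. Cells with a UMI of any marker so counted made up 13.4% of 14-day lung and 4.05% to 6.62% of the other groups. Cells without a UMI of Ncr1 (NKp46) made up 6.60% and 0.328% to 2.01%. Genes of dissociation stress were higher in lung (1340 to 1364 summed CPM) than in blood (314 to 357) at every time. Most of that sum was Junb, and single stress genes were higher in 14-day than in naive lung. Hspa1a was at 22.1 and 1.15 CPM, Hspa1b at 41.9 and 3.20 CPM and Jun at 217 and 106 CPM. Without cells holding a UMI of Hspa1a, Hspa1b, Dnajb1, Atf3 or Egr1 the type I median for lung at 14 days was 0.39, beside 0.56 with them. The part of these in the results was not tested beyond the values without such cells given below. Groups held 16936897 to 35922737 UMIs, and the libraries shared 6 to 16 cell barcodes in pairs.

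At 14 days many interferon-stimulated genes were higher in lung than in naive lung, and few were higher in blood than in naive blood. Of 49 members, 41 had a mean of at least 5 CPM over the 6 groups and were compared. In lung 20 of them were at least 1.5-fold higher and 0 at least 1.5-fold lower, where 4.49% of all 9115 genes compared were higher and 10.6% lower. In blood 2 were higher and 1 lower, where 1.14% and 3.42% of all genes were. The median log2 ratio of the 35 type I members was 0.56 in lung (0.30 to 0.67, medians of the members' own bounds) and -0.15 in blood (-0.38 to 0.04), beside medians of all genes of -0.18 and -0.15. For the 6 compared members of the Gbp, Irgm1, Igtp, Cxcl9 and Cxcl10 group it was 0.77 in lung (0.58 to 0.96) and -0.05 in blood (-0.19 to 0.16). Members that pass a mean only through 14-day lung must differ there, so the same was done with a mean of at least 5 CPM over the other 5 groups. Then 16 of 37 members were at least 1.5-fold higher in lung and 0 lower, where 4.14% and 10.8% of all genes so chosen were, and the type I median was 0.40.

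**Figure D1:**
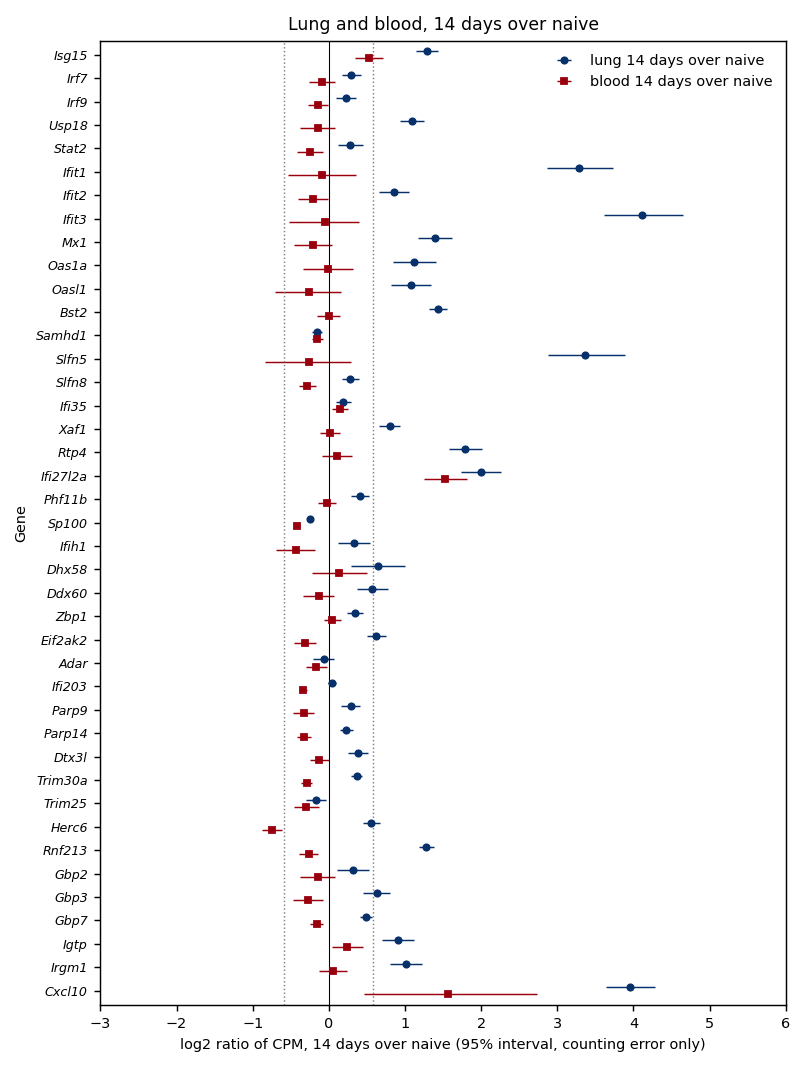
Log2 ratio of CPM at 14 days over naive for the 41 compared members, in lung (blue circles) and blood (red squares), ordered by role, with 95% intervals of counting error; dotted lines mark 1.5-fold. In lung 20 members lie right of the upper line, in blood 2 (Cxcl10 and Ifi27l2a).

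The proteins that carry and limit the interferon signal came first. Isg15, a ubiquitin-like modifier, had 22.7 CPM in naive lung, 33.7 in lung at 6 h, 55.2 in lung at 14 days, 18.0 in naive blood, 25.2 in blood at 6 h and 25.9 in blood at 14 days. It was highest in 14-day lung, with a log2 ratio over naive of 1.28 (1.14 to 1.43) in lung and 0.52 (0.34 to 0.71) in blood. Usp18, the protease that removes ISG15 and blunts IFNAR signaling, had 19.1, 19.7 and 40.8 CPM in lung at the 3 times and 15.8, 16.4 and 14.2 in blood. Its 14-day lung value stood apart from the other 5, with a log2 ratio of 1.09 (0.93 to 1.25) in lung and -0.15 (-0.38 to 0.08) in blood. Irf7, a transcription factor that amplifies interferon production, had 36.8, 37.6 and 45.1 CPM in lung and 26.5, 24.1 and 24.9 in blood, and so was higher in lung than in blood at each time. Stat2 and Irf9, which encode parts of the complex that binds the response element, differed little, with log2 ratios at 14 days of 0.28 (0.12 to 0.44) and 0.23 (0.10 to 0.36) in lung.

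Among the type I members the antiviral effectors had the highest median log2 ratio in lung at 14 days, 1.26 (1.01 to 1.48). The members given here beyond those with a mean of at least 20 CPM were picked after their values were seen. Ifit3, which belongs to a family that binds viral RNA, had 1.45, 1.75 and 25.0 CPM in lung at the 3 times and 3.87, 1.86 and 3.72 in blood. That is 17.3-fold higher in 14-day than in naive lung (log2 4.11, 3.61 to 4.65), and none of the other groups came near it. Its relative Ifit1 had 2.13, 2.64 and 20.7 CPM in lung and 4.14, 3.94 and 3.90 in blood, a log2 ratio of 3.28 (2.86 to 3.73) in lung. Slfn5, a Schlafen family gene, reached 16.2 CPM in 14-day lung against 1.58 in naive lung (log2 3.36, 2.88 to 3.89) and 2.36 to 4.53 in blood. Bst2 (tetherin), which holds budding virus at the cell surface, had 33.3, 46.4 and 90.1 CPM in lung and 35.6, 49.6 and 35.5 in blood. It was higher at 6 h in both tissues, by a log2 ratio of 0.48 in each, and at 14 days in lung, by 1.44 (1.32 to 1.55). Samhd1, which degrades deoxynucleotides, stayed between 138 and 167 CPM in all 6 groups. Among the 10 compared effectors 8 were at least 1.5-fold higher in 14-day lung, where 4.49% of all genes were. Ifit1, Ifit3 and Slfn5 were among them and lay under 5 CPM in each other group. They were thus compared only through 14-day lung, where they had to differ, and they enter the median of 1.26.

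The rarest members, under 5 CPM on average, were also highest in 14-day lung. Rsad2 (viperin) had 1.45, 1.20 and 14.1 CPM in lung and 1.70, 1.04 and 1.48 in blood (log2 3.28, 2.77 to 3.83, in lung at 14 days). Oas3, an enzyme that makes the RNase L activator, had 1.92, 2.64 and 9.87 CPM in lung and 2.5, 3.67 and 2.13 in blood. Oasl2, Ifi44, Cmpk2 and Parp12 lay between 1.00 and 3.87 CPM in the other 5 groups, and their log2 ratios in lung at 14 days were 2.47, 2.75, 1.43 and 0.92. Oas2 had at most 0.319 CPM in any group.

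Sensors and modifying enzymes differed less. Eif2ak2, the kinase PKR that halts translation on double-stranded RNA, had 31.6, 29.5 and 48.7 CPM in lung and 42.7, 39.1 and 34.4 in blood. Its log2 ratio at 14 days was 0.62 (0.49 to 0.76) in lung and -0.31 (-0.45 to -0.17) in blood. Of the 7 sensors 2 (Eif2ak2 and Dhx58) were at least 1.5-fold higher in lung at 14 days, where 4.49% of all genes were. Adar, an RNA editing enzyme, was at 34.5 CPM in naive and 33.0 CPM in 14-day lung. Of the 7 compared ubiquitin and ADP-ribose enzymes 1 was at least 1.5-fold higher in lung at 14 days, the large ubiquitin ligase Rnf213. It had 43.5, 51.0 and 105.8 CPM in lung and 57.1, 51.2 and 47.5 in blood. Herc6, the ligase that attaches ISG15 in the mouse, had 41.2, 37.4 and 60.6 CPM in lung and 63.7, 49.96 and 38.0 in blood. It was the 1 member lower by 1.5-fold in blood at 14 days (log2 -0.75, -0.88 to -0.62), while its ratio in lung was 0.56 (0.44 to 0.67). Dtx3l, which pairs with PARP9, had 33.4, 38.2 and 43.7 CPM in lung and 51.7, 52.2 and 47.4 in blood.

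Of the other type I members, Ifi27l2a moved in both tissues. It had 6.43, 10.5 and 25.7 CPM in lung and 5.6, 9.69 and 16.2 in blood, so that the 14-day value exceeded the 6 h value and the 6 h value exceeded the naive one in lung and in blood. Its log2 ratios at 14 days were 2.00 (1.74 to 2.26) and 1.53 (1.25 to 1.82). Xaf1, a pro-apoptotic gene, had 28.0, 29.8 and 48.6 CPM in lung and 42.4, 40.2 and 42.8 in blood. Rtp4 had 9.50, 10.4 and 32.9 CPM in lung and 18.7, 18.2 and 20.2 in blood, below blood in naive lung and above it at 14 days. Sp100, a nuclear body gene, was lower in every later group than in the naive group of its tissue, with log2 ratios from -0.42 to -0.25.

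**Figure D2:**
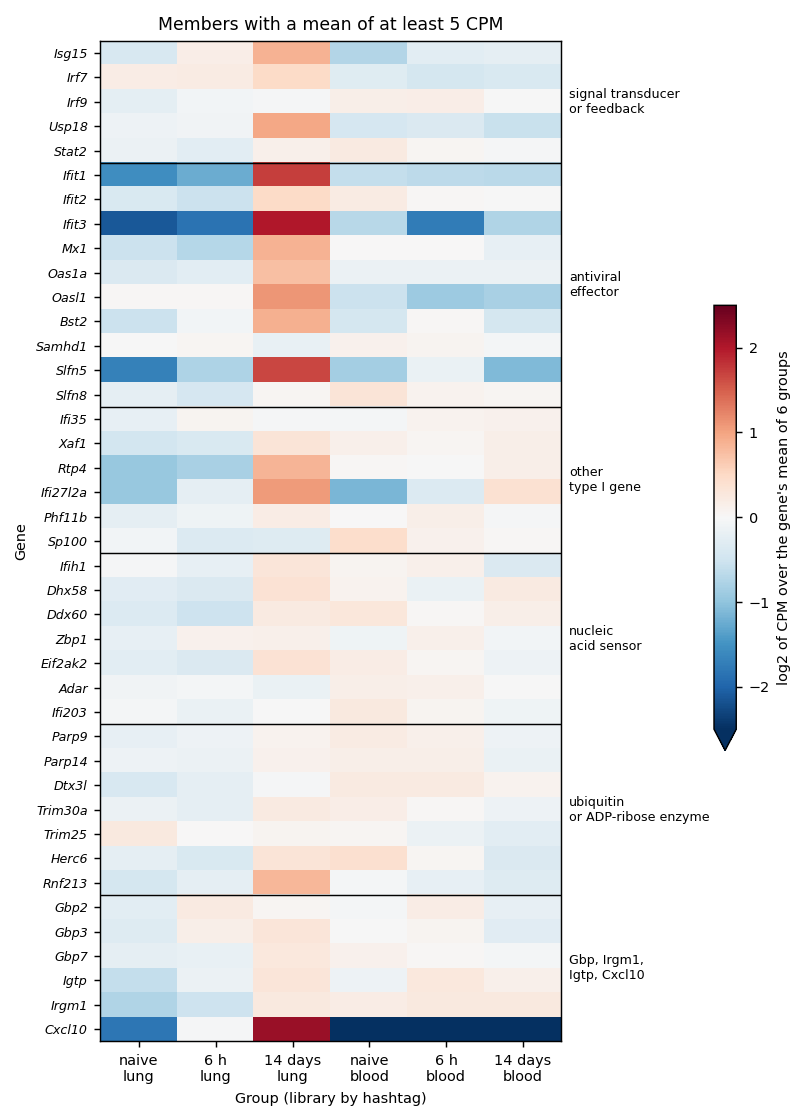
Levels of the 41 compared members in the 6 groups, as log2 of CPM over the gene's own mean of the 6 groups (colour scale from -2.5 to 2.5, lower values drawn in the end colour), ordered by role. The column of 14-day lung holds the highest value of 21 of 35 type I members, and naive blood that of 10. Among the 21 are Ifit1, Ifit3 and Slfn5, which were compared only through 14-day lung. The same count over all genes was not made.

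In the Gbp, Irgm1, Igtp, Cxcl9 and Cxcl10 group 4 of 6 compared members were at least 1.5-fold higher in lung at 14 days. At 6 h 1 was (Cxcl10). Of all genes compared 4.49% were at 14 days and 0.691% at 6 h. With a mean of at least 5 CPM over the groups other than 14-day lung, 3 of 5 members were higher at 14 days. Cxcl10 was left out by that mean. It was thus compared only through 14-day lung, where it had to differ, and it enters the counts and medians of the 6 members. The median log2 ratio of the group in lung at 6 h was 0.46 (0.27 to 0.65), beside 0.05 (-0.13 to 0.21) for the type I members and -0.07 for all genes. In blood at 6 h it was 0.15 (-0.03 to 0.33), and the ratio of lung over blood at 6 h over naive had a median of 0.16 (-0.05 to 0.43). Gbp3, a guanylate-binding protein active against intracellular pathogens, had 17.7, 24.4 and 27.3 CPM in lung and 22.1, 23.1 and 18.3 in blood. Its log2 ratio in lung was 0.47 (0.30 to 0.64) at 6 h and 0.63 (0.45 to 0.80) at 14 days. Gbp2 had 13.8, 19.3 and 17.2 CPM in lung and 16.0, 18.9 and 14.4 in blood, and was highest at 6 h. Igtp and Irgm1, immunity-related GTPases, reached 22.7 and 23.6 CPM in 14-day lung from 12.1 and 11.7 in naive lung, but 14-day blood had 20.02 and 23.6, so that lung and blood then lay together for Irgm1 (log2 0.00, -0.18 to 0.19).

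The chemokine Cxcl10, which draws CXCR3+ lymphocytes, had 3.71, 12.6 and 57.4 CPM in lung and 0.400, 2.04 and 1.18 in blood. It was higher in lung than in blood at each time and higher in lung at 6 h (log2 1.77, 1.44 to 2.12) and at 14 days (3.95, 3.64 to 4.28) than in naive lung. The blood values rest on 12, 45 and 20 UMIs. Cxcl9, a chemokine for the same receptor, was at 0 UMIs in 4 groups, at 1 UMI in lung at 6 h and at 78 UMIs in lung at 14 days, at least 21.6-fold higher there than in naive lung with 3 counts as the floor. These 78 UMIs lay in 9 cells, and 74 of them in 6 cells that also had a UMI of a marker of another cell type. A UMI of Ncr1 was in 8 of the 9 cells, and these 8 cells held 74 of the 78 UMIs. Of the 1616 UMIs of Cxcl10 in 14-day lung, 342 lay in cells with a marker of another cell type and 1426 in cells with a UMI of Ncr1. The part of other cells in these levels was not tested further.

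At 6 h few members passed 1.5-fold. In lung 3 did (Cxcl10, Slfn5 and Ifi27l2a) and 0 were lower, where 0.691% of all genes were higher and 0.176% lower. In blood 3 were higher (the same genes) and 1 lower (Ifit3, log2 -1.06, -1.61 to -0.53), where 0.56% and 0.351% of all genes were. Isg15 lay just inside the limit of 0.58 on the log2 scale, at 0.57 in lung and 0.48 in blood. Both times are compared with the same naive groups.

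Lung and blood cells of a library were run together, and their ratio was taken within each library. Among the type I members the median log2 ratio of lung over blood was -0.37 (-0.52 to -0.24) in naive mice, -0.25 (-0.37 to -0.13) at 6 h and 0.34 (0.26 to 0.49) at 14 days. The medians of all genes were -0.10, -0.10 and -0.11. In naive mice 9 members were at least 1.5-fold lower in lung and 1 (Cxcl10) higher, where 4.45% of all genes were lower and 6.23% higher. At 6 h 4 were lower and 3 higher (all genes, 4.08% and 5.94%), and at 14 days 0 were lower and 16 higher (all genes, 4.48% and 5.5%). For Ifit3 the ratio went from -1.42 (-2.01 to -0.85) in naive mice to 2.75 (2.38 to 3.15) at 14 days, and for Rtp4 from -0.98 to 0.70. The 14-day ratio over the naive ratio was above 0 in 34 of 35 type I members. Its interval was above 0 in 31 of them, and its median was 0.66 on the log2 scale. Of all 9115 genes 4133 were above 0 and 1674 had an interval above 0, with a median of -0.03. The 14-day ratio over the naive ratio was 4.17 for Ifit3 (3.5 to 4.83), 3.63 for Slfn5 and 3.37 for Ifit1, and -0.01 for Samhd1 (-0.10 to 0.09). Ifit3, Slfn5 and Ifit1 were compared only through 14-day lung, where they had to differ. They enter the 16 members higher at 14 days, the 34, the 31 and the median of 0.66. These counts were not repeated with a mean over the other 5 groups. The 6 members of the other group were above 0 as well, with a median of 0.78. Cxcl10 is among them and was likewise compared only through 14-day lung. It enters this median and the 16 members higher at 14 days. At 6 h the median ratio over naive was 0.08 for the type I members.

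**Figure D3:**
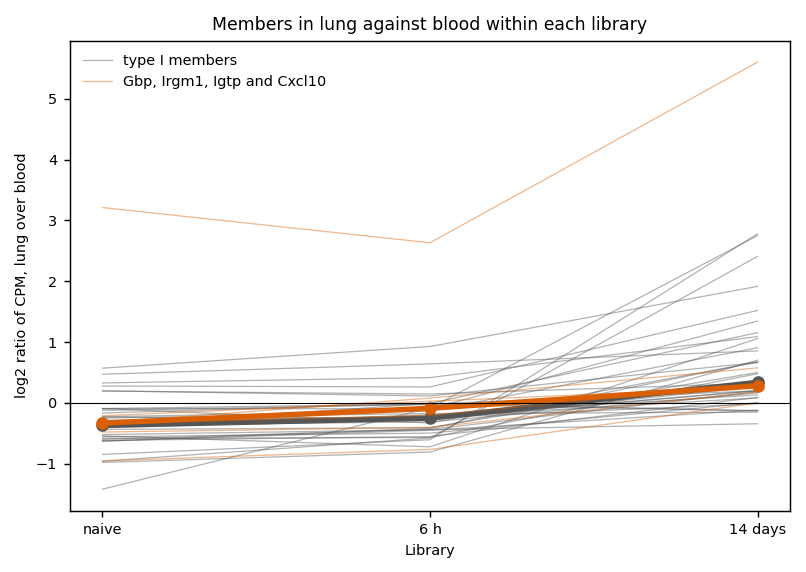
Log2 ratio of CPM in lung over blood within each library for the 41 compared members (thin lines; grey for type I members, orange for Gbp, Irgm1, Igtp and Cxcl10) with the medians of both groups (thick lines). Both medians lie below 0 in naive mice, at -0.37 and -0.33, and above 0 at 14 days, at 0.34 and 0.28.

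The level in 14-day lung was unevenly spread over cells. Each cell was thinned to 3000 UMIs, which left out shallower cells, and the UMIs of the 42 type I members were summed per cell. The median cell had 5 in naive lung, 5 in lung at 6 h and 5 in lung at 14 days, and 6, 6 and 5 in blood. Cells with 20 or more made up 0.446% of naive lung (exact binomial interval 0.255% to 0.723%), 0.647% of lung at 6 h, 4.78% of lung at 14 days (4.10% to 5.53%), and 0.652%, 0.660% and 0.921% of blood. Without thinning, and so with depth in play, the shares were 10.2%, 16.3% and 21.0% in lung and 24.6%, 28.0% and 23.7% in blood. The variance over the mean was 11.1 in 14-day lung and 2.28 to 2.77 in the other groups. The 5% of cells with the most type I UMIs held 27.7% of them in 14-day lung and 13.0% to 14.7% elsewhere. In the remaining 95% of cells the mean was 5.03 UMIs in 14-day lung and 4.90 in naive lung, against 36.6 and 14.5 in the upper 5%. Abundant members weigh most in this sum. Sp100 alone had 445 of 1794 summed type I CPM in naive lung and 375 of 2274 in 14-day lung. The summed level in naive blood was 2272 CPM (2255 to 2289), close to that of 14-day lung (2257 to 2292), and the remaining groups had 1764 to 2080 CPM. For the 23 type I members at least 1.5-fold higher in 14-day than naive lung with an interval above 0, chosen by these levels, the lower 95% had a mean of 0.984 in 14-day lung and 0.559 in naive lung, and the upper 5% had 17.5 and 4.4.

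**Figure D4:**
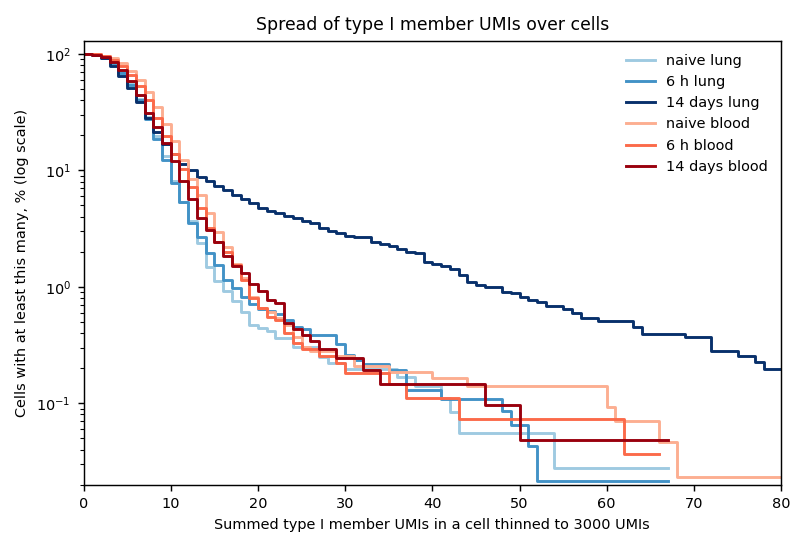
Share of cells with at least a given number of summed type I member UMIs, after thinning each cell to 3000 UMIs, for the 6 groups (log scale on the y axis). At 10 UMIs naive blood is highest, with 17.9% of cells against 13.7% in 14-day lung, and at 20 UMIs 14-day lung has 4.78% of cells and the other groups at most 0.921%.

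Ifit3 was found in 3.53% of thinned cells in 14-day lung (2.95% to 4.2%), 0.334% in naive lung (0.173% to 0.583%) and 1.16% in 14-day blood. Free RNA, bounded from barcodes with at most 100 counts, could give at most 0.0776% of cells an Ifit3 UMI in 14-day lung. Isg15 was found in 7.86% of cells in 14-day lung, 6.27% in naive lung and 8.38% in lung at 6 h, so that its share of cells was not highest in 14-day lung. Free RNA could give at most 0.131% of cells an Isg15 UMI in 14-day lung, 0.362% in naive lung and 0.598% in lung at 6 h. Unthinned, Isg15 cells held 3.19 UMIs of it on average in 14-day lung and 1.33 to 1.53 in the other groups. For Cxcl10 the mean over cells with a UMI was 9.73 in 14-day lung, and 32.0% of its UMIs lay in 5 cells.

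Members were found together in the same cells, with the widest gaps in 14-day lung. In 14-day lung, thinned cells with an Ifit3 UMI (125) had on average 31.6 UMIs of the other type I members, and cells without (3412) had 5.62. In naive lung the values were 15.6 in 12 cells and 5.35 in 3578, and in naive blood 18.6 in 43 cells and 6.64 in 4249. Cells with many members thus existed in naive mice, but fewer and with lower sums. Cells with an Isg15 UMI had 21.5 in 14-day lung and 6.50 to 9.68 elsewhere, and cells without had 5.18 and 5.06 to 6.57. Cells with a Gbp2 UMI had 11.2 in 14-day lung and 5.99 to 7.60 elsewhere, and cells without had 6.40 and 5.25 to 6.73. The gap for Gbp2 was thus small outside 14-day lung, and in 14-day blood its log2 ratio was 0.06 (-0.08 to 0.19). Of 45 other members with at least 20 UMIs in these 14-day lung cells and at least 1 on each side, 45 were at least 1.5-fold higher in the cells with Ifit3, with a median log2 ratio of 2.76. Among all 9743 genes under the same limits 11.3% were, with a median of -0.13. Rsad2 (log2 5.63), Slfn5 (5.33) and Ifit1 (5.28) differed most, and Sp100 (0.79) and Gbp3 (0.89) least. Cxcl10 was at 584 CPM in the cells with Ifit3 and at 27.0 CPM in those without. Cxcl9 had 0 UMIs in the cells with Ifit3 and 21 in those without.

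**Figure D5:**
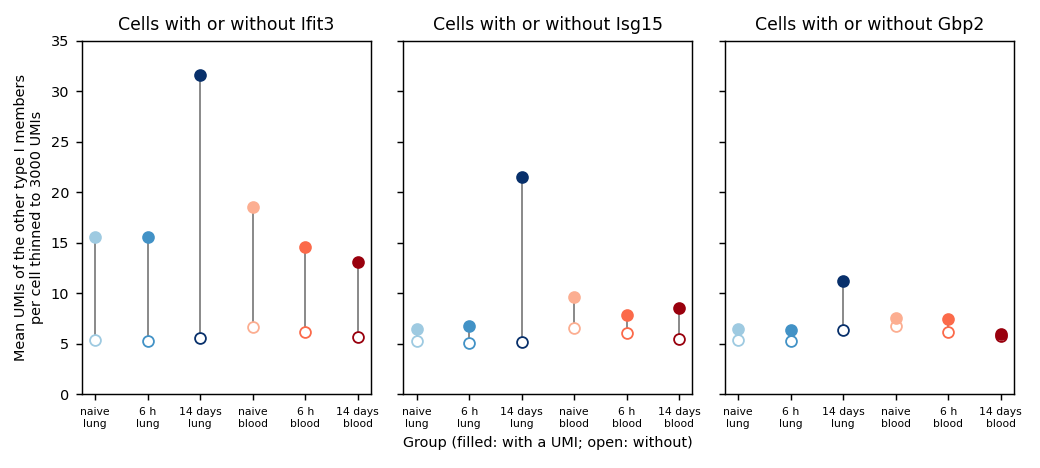
Mean UMIs of the other type I members in cells with (filled) and without (open) a UMI of Ifit3, Isg15 or Gbp2, in cells thinned to 3000 UMIs, for the 6 groups. In cells without Ifit3 the means lie between 5.25 and 6.64 in all groups, and in cells with Ifit3 between 13.1 and 18.6, but at 31.6 in 14-day lung.

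Most of the cells high in interferon-stimulated genes bore NK markers. The 23 higher type I members were chosen by their level in 14-day lung, so an excess of high cells there follows from the choice. A sum of 10 or more of their UMIs was reached by 142 thinned cells of 14-day lung (4.01%). In each other group 8 to 19 cells reached it (0.223% to 0.409%). Of the 142, 89.4% had a UMI of Ncr1 and 97.2% of Ncr1 or Klrb1c (NK1.1). A UMI of a marker of another cell type was in 20.4% of them and in 13.3% of the other 14-day lung cells, and 6 of the 142 and 50 of the 3395 others had a UMI of a C1q or endothelial gene. Of the other cells 93.8% had a UMI of Ncr1 and 99.8% of either. In the cells with Ifit3, the NK markers Ncr1 and Klrb1c were at 573 and 899 CPM, and in those without at 720 and 1166. The macrophage genes C1qa, C1qb and Csf1r were at 48.0, 42.7 and 16.0 CPM in cells with Ifit3 (18, 16 and 6 UMIs) and at 3.42, 3.71 and 0.391 CPM in those without. In the cells with Ifit3, Gzmb (granzyme B) was at 3251 CPM and in those without at 1199, Prf1 (perforin) at 405 and 867, and the activation marker Cd69 at 219 and 60.7. Without any cell that had a marker of another type, as counted above, the type I median in lung at 14 days was 0.46. With cells holding an Ncr1 UMI alone it was 0.51. The part of other cells and of doublets in the level was not tested further.

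By maturation genes, cells with a Cd27 UMI and no Itgam (CD11b) UMI, the less mature NK cells, had a summed type I level of 2620 CPM (2563 to 2677) in 14-day lung and 2031 CPM (1966 to 2099) in naive lung. Cells with Itgam and no Cd27 had 1983 CPM (1954 to 2013) and 1771 CPM (1746 to 1795). Cells with a UMI of Itga1 or Pmepa1, genes of tissue-resident and TGF-beta-exposed cells, made up 34.4% of 14-day lung and 7.99% of naive lung. They had 2551 CPM (2520 to 2583) in 14-day lung, against 2122 CPM (2100 to 2143) in cells without. In naive lung the levels were 1838 and 1791 CPM, in naive blood 2487 and 2259 CPM, and in 14-day blood 2339 and 1878 CPM, so that such cells were higher in blood too. The gates rest on single UMIs and so mix cells, and the sums weigh abundant members such as Sp100 most. Within each of these gates the type I median at 14 days over naive in lung was above 0, from 0.24 in Itgam cells without Cd27 to 0.86 in cells with Itga1 or Pmepa1. In blood the medians ran from -0.30 to 0.00.

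Most upstream parts of the pathway were not higher in 14-day lung. Ifna1, Ifna2, Ifna4, Ifnb1, Ifnl2 and Ifnl3 had 0 UMIs in all groups, with upper bounds of the interval from 0.103 to 0.218 CPM by group. Ifng had 117, 127 and 114 CPM in lung and 81.7, 85.3 and 64.3 in blood. Of the 4 receptor genes compared 0 differed by 1.5-fold at 14 days in lung, with Ifnar1 at 104, 109 and 73.3 CPM in lung. Of 10 kinases and factors 0 were higher and 3 lower there, Stat4, Stat3 and Irf8. Among all genes compared 4.49% were higher and 10.6% lower there. Of 6 inhibitors 2 were higher in 14-day lung, Irf2bp2 and Socs1, the inhibitor of JAK kinases, with 41.5, 55.0 and 70.0 CPM in lung and 29.6, 48.5 and 49.6 in blood.

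Further interferon-responsive genes were listed with results of these data known. Of 65 compared, 21 were at least 1.5-fold higher in lung at 14 days and 1 lower, and in blood 2 and 0. Of all genes compared, 4.49% were higher and 10.6% lower in lung, and 1.14% and 3.42% in blood. The 65 were chosen by a mean that includes 14-day lung, and they were not counted again with a mean over the other 5 groups. Isg20, an RNA exonuclease, had 2.68, 3.81 and 49.4 CPM in lung and 2.5, 3.08 and 3.66 in blood. It was thus compared only through 14-day lung, where it had to differ. Ifi204, a DNA sensor, reached 23.2 CPM in 14-day lung from 1.49 in naive lung, with 2.72 in 14-day blood. Ifitm3, which blocks virus entry, differed from these in that blood changed too, with 1.32, 6.40 and 17.1 CPM in lung and 1.07, 7.07 and 10.9 in blood.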

How the data were processed

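Single-cell RNA of sorted NK cells was measured in 3 droplet libraries, 1 per time point. The study gives 5 mice per group for the cells of day 14, and the labels tie no cell to a mouse. The authors deposited raw UMI counts of every gene and hashtag for all barcodes, from Cell Ranger (7.1.0 per the file headers) with reference GRCm38.p6. Seurat 5.0, which the submitters' processing notes list, left no mark on these counts. The members and all gene lists were chosen with earlier results of these data known.

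Counts were added up over the cells of each library and tag and scaled to CPM. A level has an exact Poisson interval, and a ratio has an exact binomial interval given the sum of both counts. Genes with a mean of at least 5 CPM over the 6 groups were compared, a count of 0 was set to 3, and higher or lower means at least 1.5-fold. Full values were given for the 10 members with a mean of at least 20 CPM that passed 1.5-fold in at least 1 of 7 comparisons. Cells holding both tags were dropped, and no doublet caller was run. Thinning to 3000 UMIs lost 6 to 86 cells per group. Intervals leave out the spread between mice and the uneven spread of counts over cells. On simulated counts for 14-day over naive lung, 95.1% of intervals over 9115 genes held the true ratio. These counts were drawn from the same Poisson model that the intervals assume. The share thus checks the calculation, and cannot show whether the intervals are wide enough for the real counts. Alternatives changed the filters on cells and genes, the tags, the totals, depth, free RNA and the cells kept, 3 of them chosen after seeing the data. Scripts ran in Python 3.11.15 with scipy 1.17.1 for intervals and numpy 2.4.6.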

Additional observations from a re-analysis of the deposited data

Results flagged for a closer look

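From naive mice to day 14 the type I median was above that of all genes in lung and close to that of all genes in blood. In blood 17 of 35 type I members had an interval below 0, as had 4302 of all 9115 genes. The median log2 ratio of the type I members was 0.56 in lung and -0.15 in blood, where all genes had -0.18 and -0.15, and with 1 library per time point this difference was not tested between mice. Of 41 compared members 14 had an interval above 0 in lung and below 0 in blood, as had 2.46% of all genes compared, and 5 of these are among those given in full. In lung and blood the log2 ratio was 0.56 and -0.75 for Herc6, 1.28 and -0.27 for Rnf213, 0.62 and -0.31 for Eif2ak2, 0.63 and -0.27 for Gbp3, and 0.39 and -0.13 for Dtx3l.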

How the results depend on the processing

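Of 432 main values under alternatives, 391 stayed within their interval or within 1.5 times the count, and of 1638 values of single members 1579 did. The type I median for lung at 14 days stayed above 0 in each alternative run, from 0.29 to 0.73. It was 0.73 both with totals without mitochondrial and ribosomal genes and after centring on the median of all genes, and 0.29 for members of at least 20 CPM. That mean of at least 20 CPM left fewer members. It gave medians of the Gbp, Irgm1, Igtp, Cxcl9 and Cxcl10 group of 0.56 (lung, 14 days), -0.22 (blood, 14 days), 0.26 (lung, 6 h) and 0.44 (lung over blood, 14 days), and a type I median of 0.20 for lung over blood at 14 days. It gave 7 members higher in lung and 0 in blood at 14 days, 0 higher in lung and in blood and 0 lower in blood at 6 h, and for lung over blood 0 higher and 3 lower in naive mice, 1 higher and 0 lower at 6 h and 6 higher at 14 days. Without a filter the type I median of lung over blood at 14 days was 0.67, and 2 members were lower in blood at 14 days and 2 at 6 h. At 6 h in blood 1 member was higher with 1000 to 4000 genes per cell, with the mean of each cell's CPM, without the deepest 5% of cells and with Ncr1 cells alone, and at 14 days in blood 1 was higher without the deepest 5%. In naive mice 2 members were higher in lung than in blood under these 4 settings, with free RNA subtracted and after centring, and 5 were lower after centring. Without cells holding a stress gene count, chosen after seeing the data, 6 members were higher in lung at 6 h and 8 lower in lung than blood at 6 h. The sign turned for Dtx3l in blood at 14 days after centring (0.0235), for Herc6 in lung at 6 h without stress gene cells (0.00773) and for Eif2ak2 in blood at 6 h after thinning (0.00754). Unthinned shares of cells with 20 or more type I UMIs were 10.2%, 16.3% and 21.0% in lung at the 3 times and 24.6%, 28.0% and 23.7% in blood. Causes of these shifts were not tested. No paired analysis was possible because each time point is 1 library, so that the time points share only 1 replicate number. The ratio of lung over blood within a library is given in the report. Blood counts of Cxcl10 (12 to 45 UMIs) limit what its ratios there can show.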
